A study of Mus musculus with 14 samples.

Results

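The genes described here are 158 gene symbols that encode histones or proteins that place, remove, read or move them. They were chosen by name from the 9542 symbols of the expression table, and they are the genes whose names begin with Hist, H2af, H3f, Hdac, Kdm, Kmt, Smarc, Setd, Chd, Brd, Dnmt, Tet, Ncor, Phf or Arid, without antisense transcripts. They filled 159 of the 9558 rows, since Chd1 had a pair of rows, of which the first is used. Every row of the table reached a log2 value of at least 1.61 in some cell, and every member at least 2.17, so genes of these families that stay lower throughout were not analysed here. Of the 158 symbols, 55 are named for the histone gene clusters, and the other 103 are called the members outside the clusters. The values come from 14 single cells, called cells 1 to 14, all of 1 group. The cells carried the Tomato reporter. They came from bone, and the donors were adult Prrx1-CreERT;Tomato mice of strain C57BL/6 that had received tamoxifen at 2 mg per 30 g of body weight once a day for 3 days. In this line a tamoxifen-dependent Cre is driven by the Prrx1 promoter, which is active in limb mesenchyme, and recombination turns on the red reporter. Since the labels do not say which mouse gave which cell, all 14 are treated as a single sample and no difference was tested. Untreated or reporter-negative cells were not analysed here.

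Histones package DNA into nucleosomes. The clustered histone genes are transcribed mainly while DNA is replicated, and most of their transcripts end in a stem-loop and carry no poly(A) tail, whereas the variant histones are made throughout the cell cycle from polyadenylated transcripts. Enzymes then write and erase acetyl and methyl groups on histone tails, reader proteins bind the marks, and ATP-driven remodelling complexes slide or evict nucleosomes. In skeletal mesenchymal cells several of these proteins, such as the class II deacetylases, are known for their part in cartilage and bone formation.

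A level below is a value on the log2(FPKM + 1) scale, where FPKM counts sequenced fragments scaled by transcript length and by library size. A gene is called detected at a level of 1 or more, which is an FPKM of at least 1. The deposited values were distributed alike in each cell, as quantile normalization leaves them, so that 53.0% of all symbols were detected in each cell, 32.0% reached a level of 3, and about 5% (4.96% to 4.98%) reached a level of 8. Differences between cells are therefore differences in rank, the depth of each library is unknown, and no counting interval can be given. The library kit reads the 3' ends of polyadenylated RNA, whereas FPKM divides by the whole transcript length. All 12 mesenchymal markers, among them Col1a1, Dcn and Lum, were detected in at least 7 cells, and their mean level lay between 5.20 in cell 14 and 10.83 in cell 1. Markers of blood cells were also present: the mean over 10 pan-haematopoietic markers was 9.86 in cell 14 and 8.95 in cell 11, where the median cell had 3.79, and the leukocyte gene Ptprc was at 6.51 in cell 14 and 8.31 in cell 11. A set of 5 cells, numbers 3, 4, 11, 12 and 13, is known from earlier work on these data to share genes listed at 0. Of the members, 12, or 7.59%, were listed at 0 in each of the 5 and above 0 in another cell, against 4.44% of all symbols. Of the 12, 9 were clustered histones, among them H3 genes that share sequence. The share was 16.4% of the clustered histones and 2.91% of the other members.

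Histone and chromatin genes lay near the background of all genes, and on which side of it depended on the detection level and on the length scaling. At least 7 cells held 100 of the 158 members, or 63.3%, against 51.7% of all symbols. All 14 cells held 21 members, or 13.3%, against 15.8% of all symbols. The median over members of the median level was 1.36, against 0.96 over all symbols. With detection set at an FPKM of 5, at least 7 cells held 56 members, or 35.4%, against 28.7% of all symbols, and at an FPKM of 10 they held 30 members, or 19.0%, against 21.5%. The division by transcript length was roughly undone with the length over all annotated exons of a gene. Then 78 of the 156 members with a known length were detected in at least 7 cells, and the share of all symbols was again 51.7%. Without the clustered histones, 60 of 103 members, or 58.3%, reached 7 cells or more and 17 were found in each of the 14. Exons of 44 of these 103 genes overlap exons of another annotated gene, and the sources used here do not say whether counting used strand, so some of their reads may belong to a neighbour.

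The roles differed in how many of their members were detected. At least 7 cells held 8 of 9 histone variants, 5 of 6 ARID genes outside the SWI/SNF complexes, 40 of 55 clustered histones, 5 of 7 deacetylases and 5 of 7 bromodomain genes. For the demethylases the count was 8 of 12, for the CHD remodellers 5 of 8, and for the methyltransferases 9 of 15. Fewer genes than not were detected in the Smarc genes with Arid1 and Arid2 (6 of 14), the PHD finger genes (6 of 17) and the DNA methylation genes (2 of 6). Of all symbols, 51.7% were detected in at least 7 cells, and several roles lay near this share. It was 60.0% for the methyltransferases, 62.5% for the CHD remodellers and 42.9% for the Smarc group. Roles hold few genes, so a change of 1 gene moves these shares by several percentage points. The counts of 9 of 12 roles changed more than 1.5 times at an FPKM of 5, and those of 10 at an FPKM of 10. With the division by length undone, the share of the clustered histones was 26.4%.

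**Figure D1:**
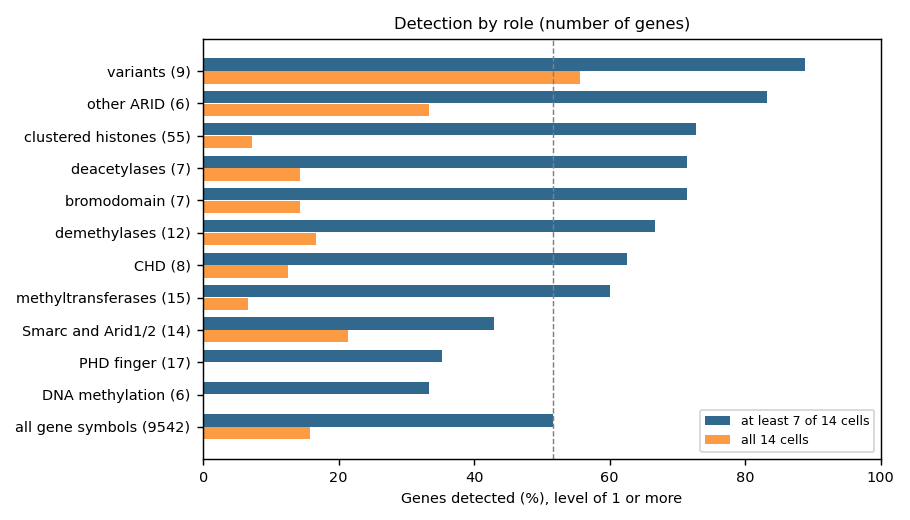
Share of genes detected at a level of 1 or more (x axis, percent) for each role (y axis, number of genes in brackets), in at least 7 of 14 cells (blue) and in all 14 cells (orange); the dashed line marks the 51.7% of all gene symbols. Histone variants had the highest shares, at 88.9% and 55.6%, and DNA methylation and PHD finger genes had no gene detected in all 14 cells.

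Among the histone variants, the genes of H3.3, the histone H3 that is deposited outside DNA replication, were detected in every cell. H3f3b (chr11:116021912-116027962, minus strand, GRCm38) had its lowest level, 7.62, in cell 6, a median of 9.56, and its highest level, 11.19, in cell 14. H3f3a (chr1:180800832-180813943, minus strand) had a lowest level of 5.15 in cell 2, a median of 8.04 and a highest level of 9.68 in cell 12. Both genes encode H3.3, but their coding sequences differ at 95 of 411 bases. Within a cell H3f3b was the higher of the pair in 12 of 14 cells, by a median of 1.60 on the log2 scale. The levels of H3f3b and H3f3a did not follow each other over the 14 cells, with a Spearman rho of -0.08.

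Another symbol, H3f3c, is annotated as a processed pseudogene on chr2:119665626-119666036, minus strand, and was also detected in all 14 cells, at levels of 2.77 in cell 6 to 7.61 in cell 14 with a median of 6.38. Its coding bases differ from those of H3f3a at 4 of 411 positions, and 73.8% of its stretches of 50 bases also occur in another annotated gene, chiefly H3f3a. H3f3c was below H3f3a in each of the 14 cells, by a median of 1.61, and its levels followed those of H3f3a with a rho of 0.92. The reverse share is small, since 12.3% of the stretches of H3f3a, the longer transcript, occur in another gene and 6.73% in H3f3c. The value of H3f3c is therefore uncertain, because most of its sequence could be read from H3f3a. The first 90 coding bases of the H3.3 genes show this, with capitals for the bases that differ from H3f3a (sequences from the GENCODE M21 transcripts of GRCm38).
H3f3a: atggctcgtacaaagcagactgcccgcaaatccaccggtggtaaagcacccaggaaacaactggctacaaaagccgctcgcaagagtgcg
H3f3c: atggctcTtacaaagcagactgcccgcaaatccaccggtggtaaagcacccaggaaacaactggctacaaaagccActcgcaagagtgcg
H3f3b: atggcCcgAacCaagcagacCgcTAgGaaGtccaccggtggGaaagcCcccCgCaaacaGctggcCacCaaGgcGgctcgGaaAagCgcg
In this window H3f3c differs from H3f3a at 2 bases and H3f3b at 20 bases.

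The variants of H2A spanned most of the measured range. H2afz, which encodes H2A.Z, a variant found at promoters, had its lowest level, 4.81, in cell 9, a median of 9.41 and its highest level, 12.65, in cell 6. It was the highest of the 9 variants in cells 3, 4, 5, 6 and 10, while H3f3a was the highest in cell 12 and H3f3b in the other cells. The second H2A.Z gene, H2afv, had a median level of 7.78 and reached 9.11 in cell 10. Cells 14 and 8 stood apart from the rest for H2afv, at levels of 0.38 and 1.48, with the next lowest at 3.65 in cell 3. The mean pan-haematopoietic level was 9.86 in cell 14 and 6.62 in cell 8, but cell 11, with 8.95, had H2afv at 8.50, and whether blood RNA plays a part was not tested.

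H2afj, encoding H2A.J, was detected in 13 cells with a median level of 5.74 and a highest level of 8.53 in cell 2. The exception was cell 6, where H2afj was at 0.64 and H2afz at its maximum. H2afx, whose product is phosphorylated at DNA breaks, was detected in all 14 cells at a low median level of 2.03, and 4 cells stood above 4, namely cells 10, 7, 8 and 12 at levels of 6.33, 5.05, 4.50 and 4.40. H2afy, which encodes macroH2A1, a large variant found in silent chromatin, was detected in 10 cells with a median level of 1.54 and reached 4.64 in cell 7. H2afy2, the macroH2A2 gene, was detected in cell 9 alone, at 4.64, and lay at 0.35 or below elsewhere.

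**Figure D2:**
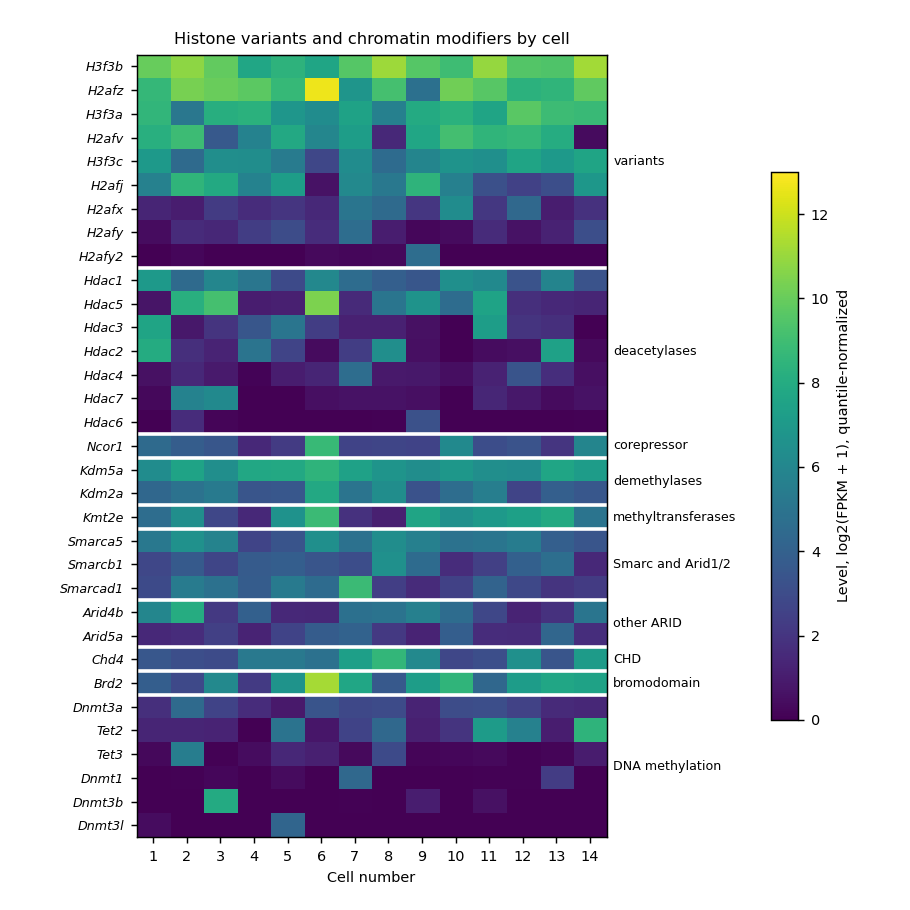
Levels (colour, log2(FPKM + 1)) in cells 1 to 14 (x axis) of all variant histone, deacetylase and DNA methylation genes and of every other member outside the histone clusters detected in all 14 cells (y axis, by role and by median). H3f3b and H2afz form the bright upper rows, Kdm5a changes less in colour across cells than most rows, and Hdac5, Hdac2 and Tet2 are bright in a few cells only.

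Of the histone deacetylases, which remove acetyl groups, Hdac1, the catalytic subunit of the Sin3 and NuRD complexes, was the 1 member detected in all 14 cells, with levels of 2.91 in cell 5 to 6.97 in cell 1 and a median of 4.87. Its partner Hdac2 was detected in 8 cells with a median level of 1.53, and it was high in 4 of them, namely cells 1, 13, 8 and 4 at levels of 7.98, 7.44, 6.41 and 4.98. Hdac1 was above Hdac2 in 11 of 14 cells, by a median of 2.75. Of the stretches of 50 bases in Hdac1 transcripts, 35.3% also occur in another annotated gene, most of them in Gm10093, so its level may hold or lose shared reads.

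Hdac3, the deacetylase of the nuclear receptor corepressor complex, was detected in 10 cells with a median level of 1.84 and stood out in cells 1 and 11, at 7.58 and 7.25. The class IIa deacetylase Hdac5 was detected in 13 cells, from 0.73 in cell 1 to 10.44 in cell 6, with a median of 3.17. Its levels were spread widely: cells 6, 3, 2, 11 and 9 were between 6.70 and 10.44, and 7 cells were below 2. Hdac4, known for holding back chondrocyte hypertrophy in mice, was detected in 7 cells with a median level of 0.99 and reached 4.67 in cell 7. Hdac7 was detected in cells 3, 2 and 11 at levels of 6.19, 5.78 and 1.42, and the tubulin deacetylase gene Hdac6 in cells 9 and 2 at levels of 3.23 and 1.64.

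Ncor1, a corepressor that tethers Hdac3 to nuclear receptors, was detected in every cell, from 1.49 in cell 4 to 8.76 in cell 6, with a median level of 3.19. Cells 10 and 14 followed at 6.17 and 5.93, and the other cells lay at 4.50 or below.

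Kdm5a, a demethylase that removes the methyl mark of active promoters from histone H3, was detected in every cell. Its level varied less on the log2 scale than those of most genes with a median level of at least 5. Its lowest level was 6.32, in cells 1 and 12, its median 7.03 and its highest 8.48, in cell 6, with an SD of 0.70. Of the 1158 symbols with a median level of at least 5, 11 had a smaller SD, or 0.95%. For comparison, the SD was 1.17 for H3f3b and 1.23 for Smarca5, the next smallest among the 15 members with such a median. Its exons overlap those of Ccdc77 on the other strand. The related Kdm5b, with the same substrate, was detected in 12 cells at a median level of 2.10 and lay below Kdm5a in each of the 14 cells, by a median of 4.89.

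The other demethylases were less even. Kdm2a was detected in all 14 cells, from 2.69 in cell 12 to 7.84 in cell 6, with a median level of 4.50. Kdm6b, which removes the mark laid down by Polycomb, had a median of 3.20 and a highest level of 5.64 in cell 11, and cells 4 and 3 fell short of detection, at 0.19 and 0.96. Kdm1a, the amine oxidase of the CoREST complex, was detected in 9 cells, with high levels in cells 9, 1, 11 and 13, at 7.61, 6.67, 6.22 and 5.21, and no other cell above 3.75. Kdm3a, also a demethylase of histone H3, was detected in 7 cells, with its maxima in cells 8, 14 and 4, at 7.14, 5.62 and 5.50. Of the 12 demethylases, 3, or 25.0%, were detected in 3 cells or fewer, near the 26.9% of all symbols.

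Among the methyltransferases and SET domain proteins, Kmt2e had the highest median level, 6.48, and was detected in all 14 cells. Its levels fell into 9 cells between 5.00 and 8.87, cell 1 at 4.64, and 4 cells below 3, namely cells 3, 7, 4 and 8 at 2.77, 1.85, 1.48 and 1.16. Kmt2a, the founding member of the family, had a median of 0.28 and was below Kmt2e in 13 of 14 cells. Setd2, which methylates histone H3 along transcribed genes, was detected in 10 cells with a median level of 2.63 and highest levels of 7.11 in cell 1 and 6.94 in cell 3. Setd1b, an enzyme of promoter methylation, and Setd4 were each detected in 13 cells at lower medians of 2.56 and 1.75, with no level above 5.74 for Setd1b or 3.40 for Setd4. Setd8, which is named Kmt5a in the annotation and methylates histone H4, was detected in 7 cells. It was highest in cells 14 and 11, at 7.34 and 5.93, the cells with the highest pan-haematopoietic means. In cell 8, which had the next highest mean, 6.62, Setd8 was listed at 0, and in cell 1, with a mean of 3.82, it was at 4.56. The part of blood RNA in these values was not tested.

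Remodelling ATPases were detected unevenly within each family. Smarca5, the ISWI motor, was detected in every cell, from 2.66 in cell 4 to 6.6 in cell 2, with a median level of 5.14, although 28.2% of its stretches of 50 bases are shared with other annotated genes. Of the alternative motors of the SWI/SNF complex, Smarca2 was detected in 12 cells with a median level of 5.08 and a highest level of 7.93 in cell 7. The other motor gene, Smarca4, had a median of 0.22 and was detected in cells 6, 10, 8 and 13, at levels of 5.91, 3.22, 2.43 and 2.19. Both motors were detected together in 3 cells, and Smarca2 was the higher in 12 of 14.

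Among the other Smarc genes, the core subunit gene Smarcb1 was detected in all 14 cells and had a median level of 3.56, a lowest of 1.52 in cell 14 and a highest of 6.54 in cell 8. Smarcad1, a remodeller of the same ATPase family, was also detected in all 14, with a median of 3.37, a lowest level of 1.59 in cell 9 and a highest of 8.87 in cell 7. The subunit gene Smarce1 was detected in 9 cells, was highest in cells 12 and 7, at 7.49 and 7.01, and was listed at 0 in cells 2 and 6. Smarcc1, a scaffold subunit, was high in cells 13 and 11, at 6.51 and 6.21, and at most 2.02 elsewhere.

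Chd4, the ATPase of the NuRD complex, was the CHD gene detected in all 14 cells, from 2.75 in cell 10 to 8.6 in cell 8, with a median level of 5.05. Chd6, Chd2 and Chd9 were detected in 11, 10 and 9 cells with medians of 2.31, 1.74 and 1.90. Chd7, the gene mutated in human CHARGE syndrome, was detected in 4 cells, the highest being cells 6 and 14 at 8.21 and 4.39.

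Of the 6 ARID genes outside the SWI/SNF complexes, 5 were detected in at least 7 cells, and Arid3a was detected in 3. Arid5b, a DNA-binding partner of the demethylase Phf2 that is known for a part in fat and cartilage development in mice, was detected in 13 cells with a median level of 4.76, a lowest of 0.82 in cell 13 and a highest of 7.20 in cell 2. Arid4b, a subunit associated with the Sin3 complex, was detected in every cell, with a median of 4.30, a lowest level of 1.31 in cell 12 and a highest of 8.05 in cell 2. Its paralogue Arid4a was detected in 9 cells, and its levels ranged from 0 in cell 14 to 9.48 in cell 6. Arid5a, which encodes an RNA-binding protein, was detected in all 14 cells at a median of 1.93 and at most 4.29. Arid3b was detected in 8 cells, reaching 8.93 in cell 8, with no other cell above 4.07.

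Of the bromodomain proteins, which bind acetylated histones, Brd2 had the highest median level, 6.93, and was detected in all 14 cells, from 2.22 in cell 4 to 11.23 in cell 6. Brd8, Brd9 and Brd7, subunits of acetylation and SWI/SNF complexes, were detected in 13, 11 and 10 cells with medians of 3.08, 3.03 and 1.58. Exons of Brd2 overlap those of H2-DMa on the other strand.

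The DNA methylation genes were the role with the lowest median level, 0.18. Dnmt3a, which sets new methylation, was detected in 13 cells at a median of 2.59, between 0.90 in cell 5 and 4.48 in cell 2. Dnmt1, which copies methylation at replication, was detected in cells 7 and 13, at 4.37 and 2.32, and lay below Dnmt3a in 12 of 14 cells. The mean over 10 cell cycle genes was 1.6 in cell 7 and 1.32 in cell 13, where the median cell had 1.35. Of these genes, Top2a and Cdk1 were at 5.48 and 0 in cell 7 and at 1.75 and 0.54 in cell 13. Dnmt3b was detected in cells 3 and 9, at 7.96 and 1.03, and the cofactor gene Dnmt3l at 4.23 in cell 5.

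Tet2, an enzyme that oxidizes methylated cytosine, was detected in 12 cells with a median level of 1.65. The highest levels, 8.46 and 7.15, were in cells 14 and 11, followed by 5.70 in cell 12, 4.97 in cell 5 and 4.41 in cell 8, while cell 4 was at 0. Cells 14 and 11 were also the cells with the highest pan-haematopoietic means, 9.86 and 8.95, whereas those of cells 12 and 5 were 3.75 and 1.73, and the part of blood RNA in the Tet2 values was not tested. Tet3 was detected in 4 cells, reached 5.49 in cell 2, and was below Tet2 in 11 of 14 cells.

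The PHD finger genes, a group defined by a zinc-binding domain that often reads histone methylation, were mostly low. None of the 17 was detected in all 14 cells, against 15.8% of all symbols. In 3 cells or fewer, 8 were detected, or 47.1%, against 26.9% of all symbols. Phf5a had the highest median level, 2.56, but it encodes a splicing factor subunit. Cells 5, 14, 12, 4 and 8 had levels of 7.49, 7.47, 7.06, 6.85 and 6.5, and the others lay at 3.87 or below. Phf14 and Phf6 were detected in 12 and 10 cells with medians of 2.33 and 1.89. Phf20, Phf23 and Phf10 were detected in 8, 8 and 6 cells, with highest levels of 7.88 in cell 7, 7.40 in cell 7 and 7.71 in cell 5.

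**Figure D3:**
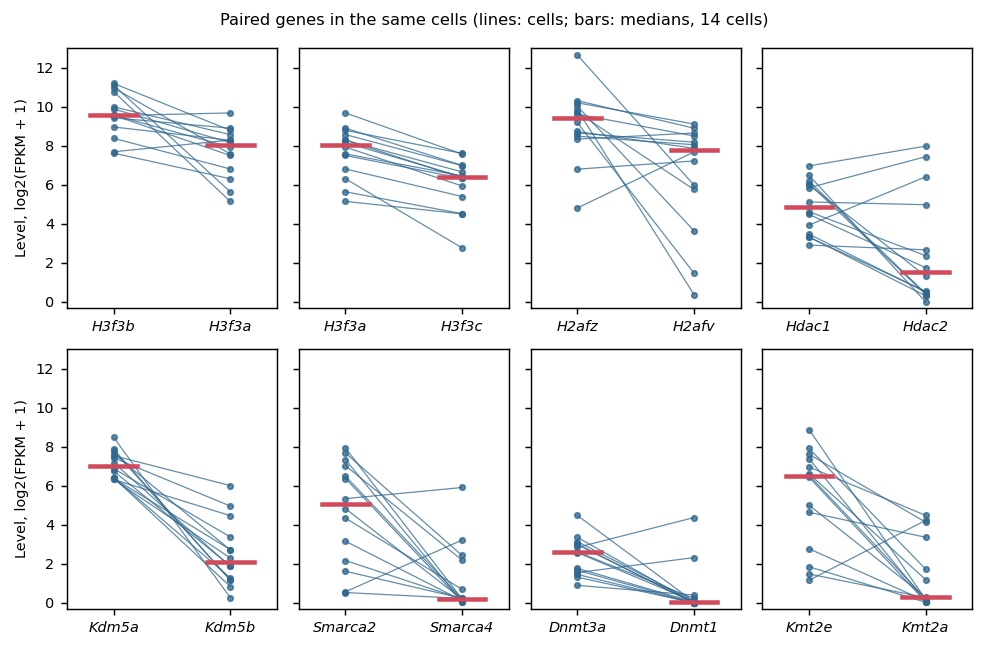
Levels (y axis, log2(FPKM + 1)) of 8 pairs of related genes, where each line joins the values of 1 cell and each red bar is the median over 14 cells. The lines fall from H3f3a to H3f3c and from Kdm5a to Kdm5b in 14 of 14 cells, from Kmt2e to Kmt2a in 13, and from H3f3b to H3f3a, Smarca2 to Smarca4 and Dnmt3a to Dnmt1 in 12.

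The clustered histone genes differed by type in how widely they were detected. At least 7 cells held 19 of 19 H2A genes and 16 of 16 H2B genes, but 4 of 11 H4 genes, 1 of 3 H1 genes and 0 of 6 H3 genes. Of all symbols, 51.7% reached that number of cells. Genes of a type share sequence and many had the same pattern over the cells, so these are not counts of separate detections. The median level was 3.08 for H2A, 2.57 for H2B, 0.26 for H4, 0.13 for H1 and 0.00 for H3. These genes are short, with a median length over all annotated exons of a gene of 485 bases. The other members had 7377 and all symbols 4401, and division by length raises short genes. With that division roughly undone by this exon length, 14 of the 53 clustered histones with a length, or 26.4%, were detected in at least 7 cells. How many of the transcripts were polyadenylated, as the kit requires, was not measured.

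Near-identical sequence limits what any single clustered histone value means. In the median, 58.0% of the stretches of 50 bases in a clustered histone transcript also occur in another annotated gene, and for 31 of 53 genes the share was at least 50%, whereas the median for the other members was 0.036%. The first 90 coding bases of a few H2B genes from the cluster on chromosome 13 are shown because these genes moved together over the cells; capitals mark bases that differ from Hist1h2bg (GENCODE M21, GRCm38).
Hist1h2bg: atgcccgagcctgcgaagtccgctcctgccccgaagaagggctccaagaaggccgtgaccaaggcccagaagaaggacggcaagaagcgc
Hist1h2bc: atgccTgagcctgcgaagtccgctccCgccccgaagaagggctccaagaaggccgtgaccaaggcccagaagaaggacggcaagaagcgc
Hist1h2bl: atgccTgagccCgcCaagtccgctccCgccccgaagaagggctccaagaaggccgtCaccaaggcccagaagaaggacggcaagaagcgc
Over the 381 coding bases Hist1h2bc differs from Hist1h2bg at 5 and Hist1h2bl at 10.

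The H2B genes of cluster 1 divided the cells sharply. Their median level over 15 genes was 7.29 in cell 6 and 4.95 in cell 12, between 3.14 and 3.72 in cells 11, 1, 10 and 5, and 2.81 and 2.36 in cells 8 and 13. In cells 2, 3, 4, 7, 9 and 14 it was between 0.00 and 0.27, and 1 or 2 of the 15 genes were detected in each. Hist1h2bc was detected in all 6 of these cells, at levels of up to 3.28, and was at 5.08 to 9.54 in the other 8 cells. Hist1h2bg, with a median of 3.21, was at 9.02 in cell 6, between 3.11 and 5.63 in the other 7 cells that detected it, and at 0.27 or below in the remaining 6. The pairwise rho among the 15 genes had a median of 0.92 over the 14 cells, with a lowest value of 0.83, beside 0.01 among the members outside the clusters. Since these genes share sequence, the shared pattern counts as 1 observation rather than 15.

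The H2A genes formed separate blocks. The 13 H2A genes named for cluster 1 other than Hist1h2al had a median level of 5.40 in cell 3, 4.79 in cell 6 and 4.47 in cell 11, and of 0.57 in cell 4 and 0.52 in cell 1. Of the 13, Hist1h2aj is annotated as an unprocessed pseudogene. All 13 were detected in each of the other 12 cells, whereas 1 was detected in cell 1 and 0 in cell 4. The pairwise rho in this block had a median of 0.96. A second block held the cluster 2 genes Hist2h2aa1, Hist2h2aa2, Hist2h2ac and Hist2h2ab with Hist1h2al, and its median level was highest in cells 6, 14, 11 and 8, at 7.97, 7.72, 7.24 and 6.21, and lowest in cell 1, at 1.29. Hist2h2aa1 and Hist2h2aa2 are paralogues whose stretches of 50 bases are shared with another gene at 89.4% and 100%, and their levels followed each other with a rho of 0.97. Hist1h2al is annotated as a processed pseudogene at chr13:51202727-51203065, apart from the cluster 1 genes. Of its stretches, 65.5% occur in Gm20634, which also shares the most with Hist2h2aa1 and Hist2h2aa2. It was placed in this block by hand, so the rho within the blocks is a description only. The 4 cells highest in this block were also the 4 with the highest neutrophil marker means, at 9.36, 8.79, 8.48 and 6.90 in the same order. The part of neutrophil RNA in these values was not tested.

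The H4, H3 and H1 genes were confined to fewer cells. H4 genes had their highest median level in cell 1, at 4.09, where 11 of 11 were detected, followed by cell 14 at 2.59 and cell 7 at 2.07, while cell 12 detected 0. Hist1h4d reached 9.30 in cell 1, 6.72 in cell 7 and 6.17 in cell 14. Other H4 genes had their maxima elsewhere, Hist1h4m and Hist1h4n in cell 11, at 7.88 and 6.89, and Hist2h4 and Hist1h4h in cell 6, at 6.80 and 6.38. The 6 H3 genes were all detected in cell 10, with a median of 4.15, and 2 of them in cell 5, while 9 cells detected none. The 3 H1 genes were all detected in cells 4, 10 and 14.

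**Figure D4:**
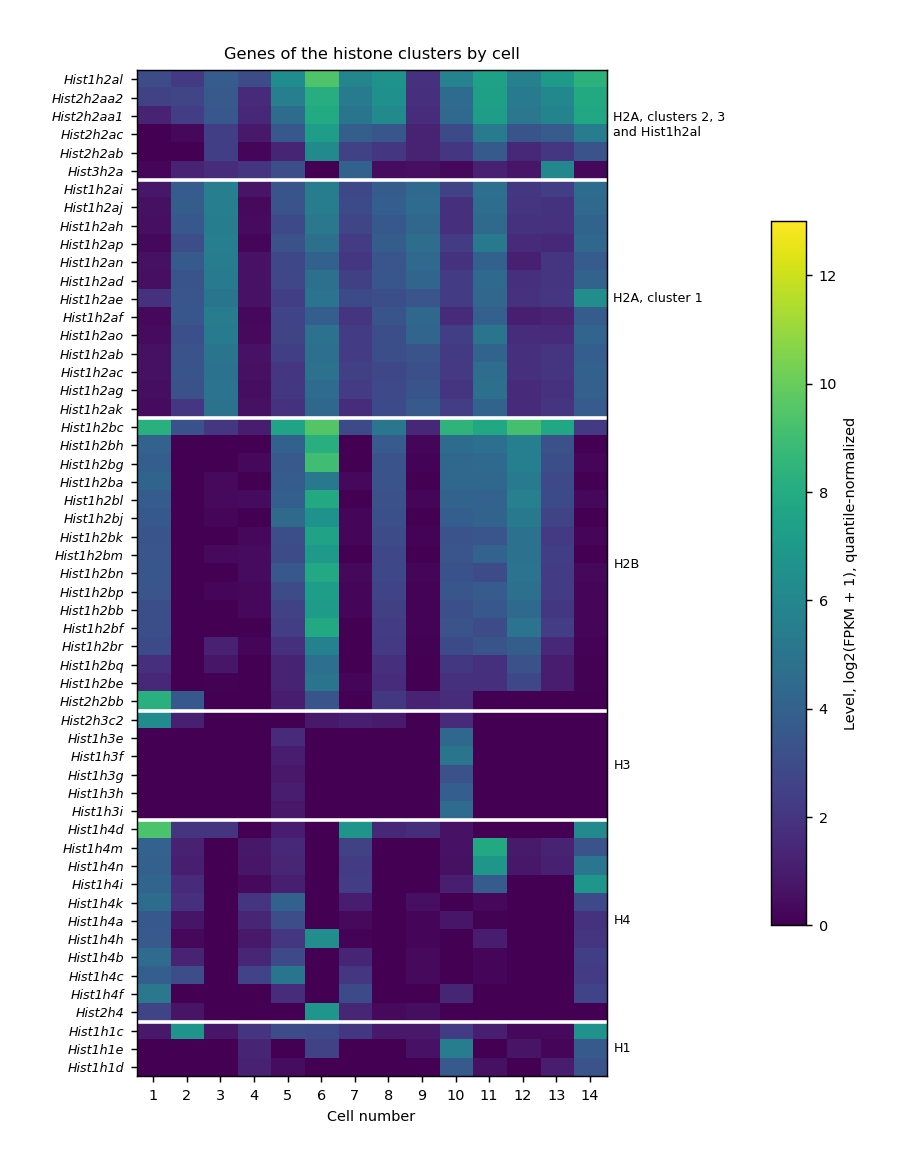
Levels (colour, log2(FPKM + 1)) of the 55 clustered histone genes (y axis, by type and by median) in cells 1 to 14 (x axis). H2B genes of cluster 1 are bright in cells 1, 5, 6, 8, 10, 11, 12 and 13 and, apart from Hist1h2bc, mostly dark in the other 6. H2A genes named for cluster 1 other than Hist1h2al are dark in cells 1 and 4, and H3 genes other than Hist2h3c2 are bright in cell 10.

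Many H2A and H2B genes lie head to head and share a promoter, so their joint behaviour can be compared. For 9 such pairs the promoter windows, of 250 bases before to 50 bases after each start, overlapped by 233 to 279 bases. The levels of the partners did not follow each other, with a rho between -0.25 and 0.08 and a median of -0.12 over 14 cells. Hist1h2ae and Hist1h2bg overlap most, by 279 bases, and were detected in 13 and 8 cells with a rho of -0.25. The sequence shared within each type limits these values as well. The promoter of Hist1h2bg is shown as the example (chr13:23571150-23571449, plus strand, RefSeq, GRCm38.p6), with capitals for the octamer ATTTGCAT, the CCAAT box and TATAAA on either strand.
Hist1h2bg promoter: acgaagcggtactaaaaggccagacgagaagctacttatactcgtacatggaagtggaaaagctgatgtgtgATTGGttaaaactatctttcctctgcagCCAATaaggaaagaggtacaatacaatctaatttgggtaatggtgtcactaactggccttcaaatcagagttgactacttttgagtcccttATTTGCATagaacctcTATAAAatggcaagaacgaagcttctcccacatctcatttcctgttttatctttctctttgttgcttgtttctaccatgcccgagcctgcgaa
The octamer begins 59 bases before the start.

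The motifs were searched as written, on both strands, in the 127 members with a promoter in the table and in all 27025 promoters. ATTTGCAT was present in 5 of 13 H2B promoters, 6 of 17 H2A promoters and 0 of 10 H4 promoters, against 1.75% of all promoters. CCAAT was present in 13 of 13 H2B and 17 of 17 H2A promoters and in 3 of 10 H4 promoters, against 37.9% of all. TATAAA was found in 7 of 13, 10 of 17 and 7 of 10 of them, against 14.2% of all. The H3 and H1 promoters held CCAAT in 5 of 5 and 3 of 3, TATAAA in 2 of 5 and 2 of 3, and ATTTGCAT in 0 of 5 and 0 of 3. In the 79 other members with a promoter the shares were 2.53% for ATTTGCAT, 40.5% for CCAAT and 5.06% for TATAAA. A match describes the letters only, and since head-to-head partners share a window, their matches are partly the same letters.

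Cells differed more in clustered histones, many of which share sequence, than in the other members. The number of members detected ranged from 62 in cell 4 to 108 in cell 5, with a median of 93. Clustered histones accounted for 12 of those in cell 4 and 48 in cell 5, whereas the other members varied between 50 in cell 4 and 67 in cell 13. The mean level of the clustered histones ranged from 0.62 in cell 4 to 4.19 in cell 6, with an SD of 0.87 over cells. For the other members the mean was 1.83 in cell 4 to 2.76 in cell 7, with an SD of 0.23, and the mean over all symbols was 2.37 in every cell by normalization.

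Cell 6 held the highest value of 37 of the 158 members, cell 3 of 20 and cell 4 of 1. Of the 37, 21 were clustered histones, many of which share sequence. Outside the clusters cell 6 held the highest value of 16 members, cell 2 of 14, cell 7 of 12 and cell 14 of 11. The same count over all symbols was not made, so these counts are not known to be particular to the members. In cell 6 the maxima included H2afz at 12.65, Brd2 at 11.23, Hdac5 at 10.44, Hist1h2bc at 9.54, Arid4a at 9.48, Kmt2e at 8.87 and Ncor1 at 8.76. Cell 6 also had the highest mean of the cell cycle list, 2.66 over 10 genes against a median of 1.35 over cells, with Pcna at 9.62 and Tyms at 6.73 but Top2a at 0.11 and Cdk1 at 0.68. It had the highest neutrophil marker mean as well, 9.36, with Mpo at 11.25 and Elane at 8.13, which were at most 2.05 and 2.37 in any other cell. The part of either in the histone values was not tested.

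Cell 4 had the lowest mean of members, 1.41, and the lowest neutrophil mean, 2.31, and macrophage mean, 1.11. With cells 11 and 14 left out, 97 members, or 61.4%, were detected in at least 6 of 12 cells, against 52.4% of all symbols, and the median level was 1.47, against 0.97. The cells kept were not free of neutrophil transcripts, since Retnlg and Camp were detected in every cell. Over the 14 cells the mean level of the members outside the clusters had a rho of 0.52 with the pan-haematopoietic mean and 0.26 with the mesenchymal mean. For the number of these members detected in a cell, the rho was 0.16 and 0.18. These values share a library and a normalization in each cell, and they are given as descriptions.

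**Figure D5:**
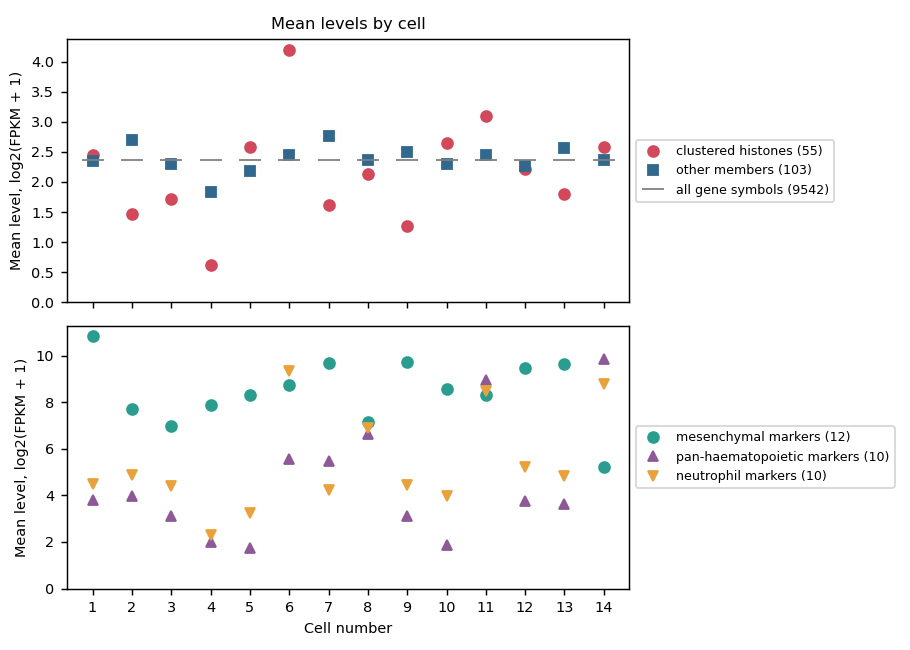
Mean level (y axes, log2(FPKM + 1)) by cell (x axis) of clustered histones, other members and all gene symbols (upper panel) and of mesenchymal, pan-haematopoietic and neutrophil markers (lower panel). Clustered histones run from 0.62 in cell 4 to 4.19 in cell 6, while the other members stay between 1.83 and 2.76.

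Other chromatin genes, listed from general knowledge and not taken by the name rule, were also near the background. Of 92 with a row, 45, or 48.9%, reached 7 cells or more and 13, or 14.1%, were found in each of the 14, beside 51.7% and 15.8% of all symbols and 63.3% and 13.3% of the members. At an FPKM of 10 the share reaching 7 cells was 25.0%, beside 19.0% of the members, and these differences were not tested. Polycomb genes were the lowest group, with 4 of 18 detected in at least 7 cells, led by Eed at a median level of 5.35 and Pcgf2 at 4.37. Deacetylase complex subunits gave 8 of 16, and among them Sap18, at a median of 8.81, and Sin3b, at 7.33, lay above Hdac1, at 4.87. Methyltransferase complex genes gave 7 of 12, with Ash2l at 4.80 and Dpy30 at 4.68, and acetyltransferases 4 of 8, with Kat8 at 3.42 and Crebbp at 2.78.

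Histone chaperones gave 7 of 13, led by Npm1 at a median level of 7.74 and Nasp, a carrier of free histone H3, at 5.39. Heterochromatin and high-mobility-group genes gave 12 of 19, with Hmgb1 at 8.0 and Hmgn3 at 6.84, and 3 of 6 sirtuins were detected in at least 7 cells, with Sirt2 at 4.74 and Sirt1 at 3.84.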

How the data were processed

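Single-cell RNA-seq values of 14 cells were taken from the deposited table. Per the labels' protocols, the kits were SMART-Seq v4 3' DE and Nextera XT. Per the submitters' processing notes, TopHat2, Cufflinks and GRCm38 were used, with no version given. The deposited values, named FPKM by the authors, were read from their distribution as quantile-normalized log2(FPKM + 1), although no label or header records these steps. The design had been written for FPKM, so that thresholds were converted to the log2 scale. Repeated symbols kept their first row. No counts are held, so depth is unknown. Medians, counts and Spearman correlations were computed with Python 3.11.15, pandas 2.3.3, numpy 2.4.6 and scipy 1.17.1, and figures were drawn with matplotlib 3.10.9. The medians and detection counts per gene, but not the correlations, were checked on simulated data. Of the members, 156 matched GENCODE M21 by gene ID. Shared sequence was measured in stretches of 50 bases. The length of a gene was that of all its annotated exons joined, which can exceed the length used for FPKM, so the division by length was undone only roughly. The pairs of related genes compared within cells were chosen with values known.

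Genes were named by rule. In each role these were the 4 with the highest median and the 2 with the largest SD among members detected in 3 to 11 cells. All histone variants, deacetylases and DNA methylation genes, all members detected in every cell, and the top 2 of each list of other chromatin genes were added. Values of some genes are not reported here. Kmt2a, Smarca4, Arid3a, Top2a, Cdk1, Hist1h2ae, Hist1h2aj, Hist1h2bl, Hist2h2ac and Hist2h2ab were named after their values were seen. So were Hist1h1c, Hist2h3c2, Hist1h4h, Hist1h4m, Hist1h4n and Hist2h4. Members and lists were chosen with earlier results of these data known. Alternatives were other detection levels, another pseudocount, no division by length, and cells or clustered histones left out.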

Additional observations from a re-analysis of the deposited data

How the results depend on the processing

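No difference was tested, but the side of the background on which the members lay turned under some settings. The 100 members detected in at least 7 cells (63.3%, against 51.7% of all symbols) became 56 with detection at an FPKM of 5 (35.4%, against 28.7%), 30 with an FPKM of 10 (19.0%, against 21.5%), 78 with the division by length undone (50%, against 51.7%) and 60 without the clustered histones (58.3%, against 51.7%). The 21 members detected in all 14 cells (13.3%, against 15.8%) became 66 with any level above 0 (41.8%, against 46.0%), 9 at 5 FPKM (5.7%, against 6.23%) and 4 at 10 FPKM (2.53%, against 4.24%). The median level of 1.36 became 0.90 with the division by length undone (all symbols 0.96) and 3.53 with a pseudocount of 10 (all symbols 3.45). Members detected per cell, 93 in the median, became 59.5 at 5 and 43 at 10 FPKM, and 59 without the clustered histones. The mean level per cell, 2.31 in the median, became 4.2 with a pseudocount of 10 (all symbols 4.33). The number of roles in which detected members were not outnumbered, 9 of 12, became 3 at 5 and 2 at 10 FPKM. The 45 other chromatin genes became 84 above 0 (91.3%, beside 87.3% of members), 29 at 5 FPKM (31.5%) and 23 at 10 FPKM (25.0%), and 52.2% with the division by length undone. The detection levels act by their own construction. Leaving out 1 cell at a time gave 90 to 96 members in at least 7 cells, 21 to 23 in all cells, a median level of 1.31 to 1.53, 93 members per cell and a mean level of 2.30 to 2.33. Not counting single roles, 110 values under the alternatives stayed within 1.5 times the count or within the spread. They include the values with 1 cell left out, the 52.2%, and the 78, although the 78 lay on the other side of the background. No paired analysis was possible because all cells belong to 1 group. Without counts, a level near 0 cannot be told from a missed transcript.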
